A study of Mus musculus with 18 samples.

Results

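Semaphorins, plexins and neuropilins were followed across sorted cells of the mouse small intestine. They were taken by gene symbol alone and made up 31 of the 23238 symbols in the count tables, namely 20 semaphorins of classes 3 to 7, 9 plexins and the 2 neuropilins. All 31 were counted on a single row in each of the 18 libraries. The 4 groups came from adult C57BL/6J mice, and all of them carried Pdgfrb-CreERT2, a tamoxifen-inducible Cre driven by the Pdgfrb promoter, together with a tdTomato reporter. The groups labelled LATS1/2 KO carried in addition Lats1 f/f and Lats2 f/f, floxed alleles of the Hippo pathway kinases that restrain YAP and TAZ, whereas the WT groups did not. PDGFRb+ intestinal stromal cells (IntSCs) were sorted after depletion of CD45, CD326 and CD31 positive cells, with 6 WT and 5 KO libraries, and lacteal lymphatic endothelial cells (LECs) were sorted with antibodies to CD31 and podoplanin, with 4 WT and 3 KO libraries. The Cre targets PDGFRb+ cells, so a KO LEC library holds LECs from a mouse whose stromal cells were targeted. Libraries were prepared with a QuantSeq 3′ kit, in which a transcript is read near its 3′ end, and levels are given as CPM, the count of a gene scaled to a fixed library size. The study's supplement counts mice per group, pooled over separate experiments, but the labels tie no library to a mouse or an experiment. The p-values therefore measure the spread between these libraries, and differences between experiments could not be taken into account.

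Semaphorins are guidance cues that act on plexins. Class 3 members are secreted and mostly bind a neuropilin that holds them to an A-type plexin or Plxnd1, whereas Sema3e binds Plxnd1 directly. Classes 4 to 6 span the membrane, and Sema7a is anchored by a lipid tail and binds Plxnc1 and integrins. Plexins carry an intracellular domain that turns off small GTPases of the Ras and Rap family, which weakens adhesion to the matrix. Neuropilins have a further role as co-receptors of vascular endothelial growth factors. Nrp2 is known as a partner of VEGFR3 in lymphatic vessels and Nrp1 as a partner of VEGFR2 in blood vessels.

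Library totals ran from 5361250 to 10549233 reads, and 3 reads, the floor used here, stood for 0.560 CPM in the smallest library and 0.284 CPM in the largest before scaling. Of 9 LEC markers fixed for the check, 8 were higher in LECs than in IntSCs in both genotypes, the exception being Pdpn, while all 9 stromal markers were lower in LECs. Prox1, the transcription factor that defines lymphatic identity, lay at 33.3 to 87.1 CPM in WT LECs and 34.7 to 117 CPM in KO LECs but at no more than 0.170 CPM in any IntSC library. The summed level of 6 smooth muscle markers was 1019 to 2267 CPM in IntSCs and 85.9 to 249 CPM in LECs. Sums over 8 epithelial, 7 leukocyte and 8 enteric glial and neuronal markers reached at most 134, 146 and 37.6 CPM in any library. Lats1 averaged 17.3 ± 10.2 CPM in WT IntSCs (SD, n = 6) and 15.9 ± 3.55 CPM in KO IntSCs (SD, n = 5). Lats2 averaged 72.0 ± 23.7 and 113 ± 20.9 CPM in the same groups, so no fall of either target was detected. Which part of each gene the floxed alleles remove is not given in the sources used here, and reads from the 3′ end may lie outside it. These Lats1 and Lats2 counts therefore do not check the genotype labels, and KO below means the libraries labelled KO.

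A gene was called expressed in a group when each of its libraries reached 1 CPM. By that rule 19 of the 31 genes were expressed in WT IntSCs, 22 in KO IntSCs, 13 in WT LECs and 12 in KO LECs, and 24 in at least 1 group. Over all genes the shares by the same rule were 38.5%, 42.6%, 33.5% and 28.8% in the same order. With a median of 1 CPM in place of every library, WT LECs expressed 22, while KO LECs gained only Nrp1, Plxna1 and Sema6d. No share over all genes was taken for the median rule. The lists that follow use the rule of every library. The 9 genes expressed in all 4 groups were Nrp2, Plxna2, Plxna4, Plxnd1, Sema3f, Sema4c, Sema6a, Sema6b and Sema7a. The 8 genes expressed in both IntSC groups and in neither LEC group were Nrp1, Plxna1, Plxnb1, Plxnc1, Sema3b, Sema3c, Sema5a and Sema6c. Nrp1 nonetheless reached 26.3 to 34.9 CPM in 3 of the 4 WT LEC libraries and missed the rule through the fourth, at 0.497 CPM. Sema3c, Sema5a and Sema6c also reached 1 CPM in 3 of the 4 WT LEC libraries, and Plxna1, Plxnb1 and Plxnc1 in 2. Sema3a alone was expressed in both LEC groups and in neither IntSC group. No group expressed the remaining 7, which were Plxnb3, Sema3e, Sema4a, Sema4b, Sema4f, Sema4g and Sema5b. In bulk samples, fewer expressing cells and less RNA in each cell cannot be told apart.

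**Figure D1:**
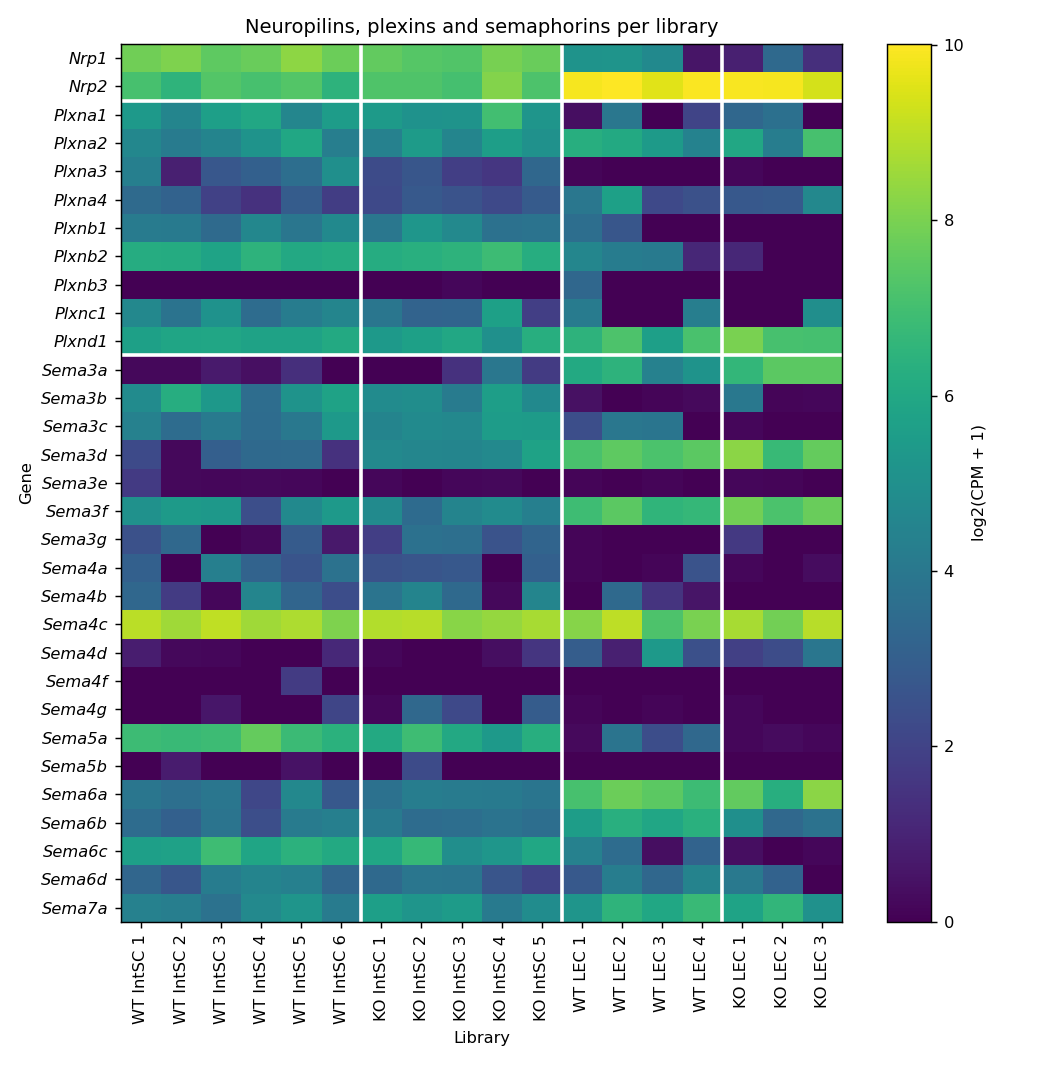
Level of each of the 31 genes (rows) in each of the 18 libraries (columns), as log2(CPM + 1) on the colour scale, with white lines between groups and between gene families. Nrp2 is bright in all 7 LEC libraries and Nrp1 in all 11 IntSC libraries, whereas Sema4c is high in every column.

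The first question was which semaphorin signalling genes set LECs apart from the stromal cells around them. In WT mice, 14 of the 24 genes with enough reads to be tested differed between LECs and IntSCs (edgeR quasi-likelihood test, Benjamini-Hochberg adjusted p under 0.05), against 22.6% of all genes tested. Nrp2, Plxnd1, Sema3a, Sema3d, Sema3f, Sema6a, Sema6b and Sema7a were higher in LECs, and Nrp1, Plxna3, Plxnb2, Sema3b, Sema5a and Sema6c were lower. Over all genes 10.3% were higher and 12.3% lower. In KO mice, 14 of 27 tested genes differed, against 25.9% of all genes. There Nrp2, Plxnd1, Sema3a, Sema3d, Sema3f and Sema6a were higher in LECs (9.11% of all genes), and Nrp1, Plxna3, Plxnb1, Plxnb2, Sema3c, Sema4b, Sema5a and Sema6c were lower (16.8%). By library, 7 members lay above all IntSCs in every WT LEC library (9.76% of all genes) and 7 below (11.4%), and in KO mice 7 lay above (12.1%) and 11 below (20.1%). The 2 comparisons have no library in common. Among the 24 genes tested in both, 11 passed in both and all 24 had the same sign, whereas 13.9% of all genes passed in both and 73.6% had the same sign. The median log2 fold change of the tested members was −0.84 in WT and −0.80 in KO mice, beside −0.04 and −0.21 over all genes.

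**Figure D2:**
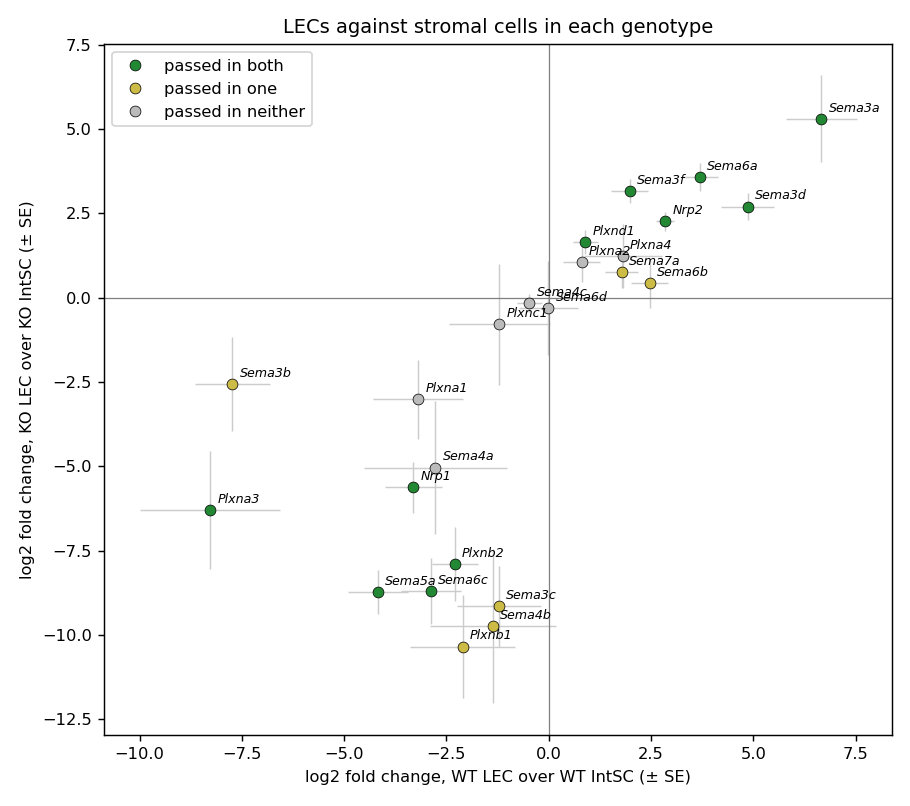
Log2 fold change of LECs over IntSCs in WT mice (horizontal) and KO mice (vertical) for the 24 genes tested in both, each point with its SE, coloured by the number of comparisons in which it passed the test. All points lie to the lower left or upper right of the lines at 0, with Sema3a farthest to the upper right.

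The neuropilins went in opposite directions. Nrp2 (chr1:62703317-62818692, plus strand, GRCm38, the build also called mm10) lay at 928, 1032, 765 and 993 CPM in the WT LEC libraries and at 88.6 to 160.2 CPM in WT IntSCs, with a median of 135 CPM. The KO LEC libraries had 976, 951 and 658 CPM and the KO IntSC libraries 150.0, 151, 131, 284 and 146 CPM. Every LEC library thus lay above every IntSC library, with 1 KO IntSC library, the fourth, well above the rest of its group. The log2 fold change of LECs over IntSCs was 2.85 ± 0.22 (SE) in WT mice (adjusted p = 1.98e-07, edgeR) and 2.26 ± 0.27 in KO mice (adjusted p = 0.000237). Nrp1 (chr8:128358591-128505476, plus strand) had 184 to 318 CPM in WT IntSCs with a median of 223 CPM, and 194, 166, 157, 248 and 208 CPM in KO IntSCs. In WT LECs it had 34.5, 34.9, 26.3 and 0.497 CPM, and in KO LECs 0.855, 9.83 and 1.56 CPM. All LEC libraries fell below all IntSC libraries, and the fourth WT LEC library was as low as the KO LECs.

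For Nrp1 the log2 fold change was −3.31 ± 0.70 in WT mice (adjusted p = 0.00331) and −5.63 ± 0.77 in KO mice (adjusted p = 0.000493, and −7.37 without KO LEC library 2). With the replicate number of the libraries as a block, the WT call was lost (edgeR, adjusted p = 0.0610) and the KO call held (0.00685). Expressed as a share of all neuropilin CPM in a library, Nrp2 took 25.5 to 53.4% in IntSCs and 96.4 to 99.95% in LECs. The summed level of 7 blood endothelial markers moved with Nrp1, at 1373 to 2819 CPM in WT IntSCs and 596 to 1001 CPM in WT LECs, and its part in the Nrp1 difference was not tested. Cd34, which averaged 1685 CPM in WT IntSCs and 157 CPM in WT LECs, carried that sum, whereas Emcn went the other way, from 8.38 CPM in WT IntSCs to 504 CPM in WT LECs. Vwf and Esm1 of that list were at 0 in KO LECs. Outside the family, the genes whose log2(CPM + 1) followed Nrp2 most closely over the 18 libraries were Atpaf2 (Spearman rho 0.93), Tpra1 (0.92), Mlf2 (0.91), Cd38 (0.90) and Psma7 (0.89), of 10705 genes compared. The points of that description share 2 cell types.

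Among the plexins, Plxnd1 was the 1 receptor that passed as higher in LECs. Plxnd1 (chr6:115954811-115995339, minus strand), the endothelial receptor of Sema3e, lay at 86.7, 149, 48.7 and 139 CPM in WT LECs and 50.6 to 66.4 CPM in WT IntSCs, with a median of 55.7 CPM. It reached 252, 137 and 134 CPM in KO LECs against 42.3, 51.3, 63.2, 31.4 and 76.7 CPM in KO IntSCs. The groups overlapped in WT mice, through the third LEC library, and did not overlap in KO mice. LECs exceeded IntSCs by a log2 fold change of 0.89 ± 0.31 in WT (adjusted p = 0.0482) and 1.65 ± 0.35 in KO mice (adjusted p = 0.00722). The WT call was lost with DESeq2 (adjusted p = 0.0648), with size factors of the RLE method (0.0729) and without the filter on low counts (0.0602). It was also lost in 9 of the 10 fits that left out 1 library, the exception being the fit without WT LEC library 3. Plxnd1 passed in neither genotype once replicate number entered the fit as a block (edgeR, adjusted p = 0.221 in WT and 0.0973 in KO mice). Its direct ligand Sema3e (chr5:14025276-14256689, plus strand) had at most 2.24 CPM in any library, with 19 reads over the WT IntSC libraries, 3 over the KO IntSC libraries and 2 over each LEC group.

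Of the B-type plexins, receptors of class 4 semaphorins, Plxnb2 was lower in LECs than in IntSCs in both genotypes and Plxnb1 passed the test in KO mice. Plxnb2 (chr15:89155546-89182018, minus strand) lay at 54.7 to 88.4 CPM in WT IntSCs with a median of 70.6 CPM, and at 71.5, 78.4, 86.7, 115 and 73.6 CPM in KO IntSCs. In WT LECs it had 23.1, 17.2, 16.2 and 1.19 CPM, and in KO LECs 1.14, 0 and 0 CPM. LECs lay below IntSCs in every library of both genotypes. Its log2 fold change was −2.29 ± 0.57 in WT (adjusted p = 0.00887) and −7.89 ± 1.09 in KO mice (adjusted p = 0.000558), the latter resting on 8 LEC reads from KO LEC library 1 and moving to −12.40 without it. The WT call was lost with the replicate number as a block (edgeR, adjusted p = 0.0549). Plxnb1 had 10.1 to 25.9 CPM in WT IntSCs with a median of 16.7 CPM, and 14.6, 37.7, 25.5, 12.5 and 13.1 CPM in KO IntSCs. WT LECs had 11.4, 5.41, 0 and 0 CPM, and no read was counted in the 3 KO LEC libraries.

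Against the floor of 3 reads per library, Plxnb1 was at least 54.2-fold lower in KO LECs than the mean of KO IntSCs (adjusted p = 0.00176), while the WT groups overlapped (adjusted p = 0.292). Its KO call was lost with the replicate number as a block (edgeR, adjusted p = 0.103). Plxna3, an A-type plexin through which class 3 semaphorins signal, had 0.848 to 31.0 CPM in WT IntSCs with a median of 9.32 CPM, and 3.92, 5.37, 2.62, 1.98 and 9.02 CPM in KO IntSCs. A single Plxna3 read was found in WT LECs, and another in KO LECs. Its ratio of IntSC to LEC level was 464 in WT mice (95% counting interval 82.9 to 18376) and 110 in KO mice (19.6 to 4387), and these intervals cover counting error only. The adjusted p-values were 0.00243 and 0.0238, and the KO call was lost without KO LEC library 2 or 3 (adjusted p up to 0.0590) and without the filter on low counts (0.0544). The KO call was also lost with the replicate number as a block (edgeR, adjusted p = 0.204). Plxna1, Plxna2, Plxna4 and Plxnc1 passed in neither genotype. Of these, Plxna1 had 22.2 to 127 CPM in IntSCs and 0 to 14.8 CPM in LECs without overlap, with adjusted p = 0.0512 in WT and 0.0837 in KO mice. It passed in WT mice with DESeq2 or with its size factors in edgeR, and in KO mice with DESeq2. Its last 1000 bases overlap an exon of Gm26811 on the other strand, the only such overlap among the 30 genes whose positions were kept. The position of Sema6a is not reported here. Plxnb3 had 97 reads in WT LEC library 1, 1 read in 1 KO IntSC library and none in the others.

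**Figure D3:**
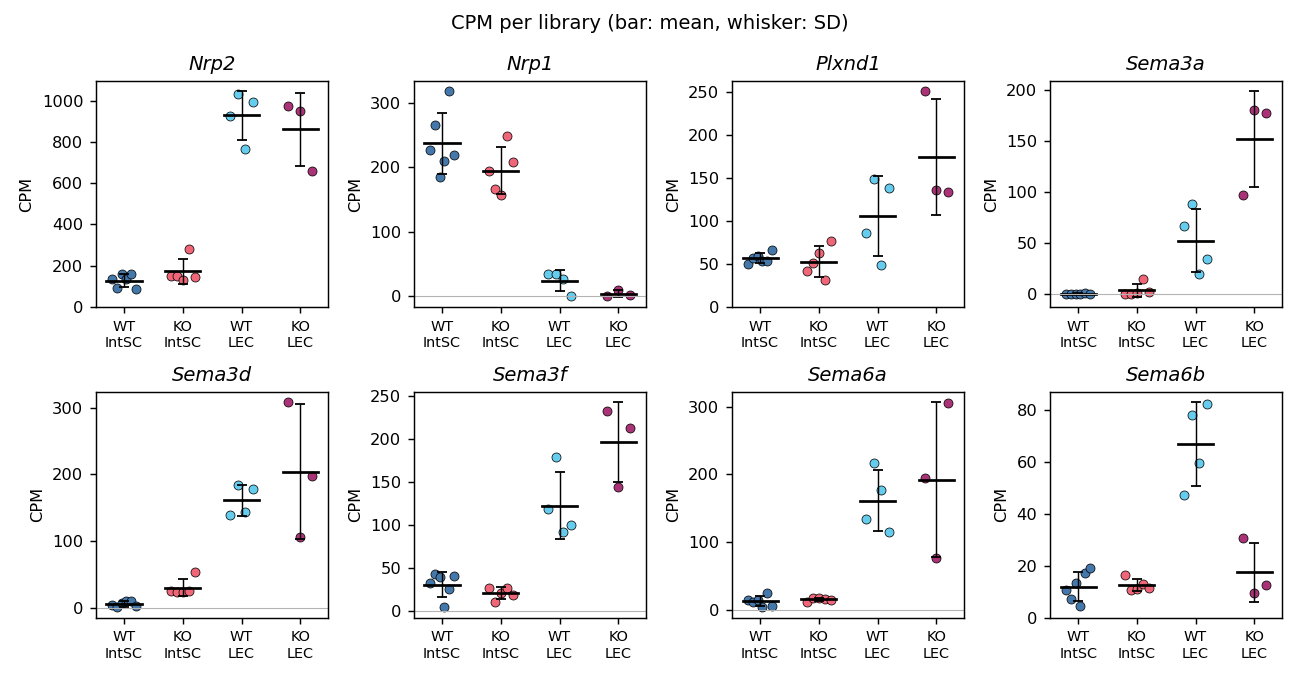
CPM per library (points) in the 4 groups for both neuropilins, Plxnd1 and 5 semaphorins, with the group mean as a bar and the SD as whiskers. Nrp2, Sema3a, Sema3d, Sema3f and Sema6a are higher in all LEC than in all IntSC libraries, Nrp1 is lower, and Sema6b has its highest values in WT LECs.

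Secreted class 3 semaphorins divided between the cell types. Sema3a (chr5:13124822-13603485, plus strand), a repulsive cue that acts through Nrp1, had 67.2, 88.6, 20.3 and 34.2 CPM in WT LECs and 97.6, 180.0 and 178 CPM in KO LECs. WT IntSCs had 0 to 1.56 CPM with a median of 0.252 CPM, and KO IntSCs 0, 0, 1.67, 14.6 and 2.32 CPM. The cell types did not overlap, and the log2 fold change was 6.66 ± 0.86 in WT (adjusted p = 3.73e-05) and 5.30 ± 1.29 in KO mice (adjusted p = 0.0129, and 7.12 without KO IntSC library 4). Sema3f (chr9:107681499-107710475, minus strand), a ligand of Nrp2, had 119, 179, 92.6 and 100.5 CPM in WT LECs and 233, 145 and 213 CPM in KO LECs. It had 4.35 to 42.9 CPM in WT IntSCs with a median of 36.0 CPM, and 26.5, 10.3, 21.7, 27.6 and 18.9 CPM in KO IntSCs. No LEC library fell into the IntSC range, and the log2 fold change was 1.98 ± 0.46 in WT (adjusted p = 0.00534) and 3.16 ± 0.35 in KO mice (adjusted p = 0.00013).

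Sema3d (chr5:12383161-12588953, plus strand), a secreted cue that guides endothelial and neural crest cells, had 139, 184, 143 and 178 CPM in WT LECs and 309, 105 and 198 CPM in KO LECs. WT IntSCs had 0.170 to 10.1 CPM with a median of 5.50 CPM, and KO IntSCs 25.1, 23.2, 22.8, 25.6 and 53.0 CPM. The 4 groups took separate ranges except that both LEC ranges overlapped. The log2 fold change of LECs over IntSCs was 4.86 ± 0.65 in WT (adjusted p = 7.78e-05) and 2.70 ± 0.41 in KO mice (adjusted p = 0.00108). Sema3b, a class 3 member of IntSCs, had 11.03 to 73.8 CPM in WT IntSCs with a median of 36.9 CPM, and 27.5, 29.1, 17.0, 48.3 and 26.0 CPM in KO IntSCs. It had 0.380, 0, 0.0935 and 0.199 CPM in WT LECs and 15.2, 0.109 and 0.130 CPM in KO LECs. The first KO LEC library stood apart from the other LECs. Its log2 fold change was −7.73 ± 0.92 in WT (adjusted p = 1.72e-05) and −2.56 ± 1.40 in KO mice (adjusted p = 0.222).

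Sema3c, a guidance cue of the cardiac outflow tract, lay at 10.5 to 41.0 CPM in WT IntSCs with a median of 15.7 CPM, and at 22.1, 26.8, 24.9, 45.4 and 44.2 CPM in KO IntSCs. WT LECs had 4.28, 14.6, 13.8 and 0 CPM, and KO LECs 0.142, 0 and 0 CPM, a single read. The WT groups overlapped (log2 fold change −1.22 ± 1.03, adjusted p = 0.467). In KO mice the ratio of IntSC to LEC level was 769 (95% counting interval 138 to 30412, adjusted p = 0.000383). Sema3g, a further Nrp2 ligand, had 0 to 9.50 CPM in WT IntSCs with a median of 2.63 CPM, and 2.61 to 12.3 CPM in KO IntSCs. In LECs it had 1 read over the WT libraries and 15 reads over the KO libraries. It was tested in the KO comparison (adjusted p = 0.194) and had too few reads for the WT one.

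Promoter sequence is shown for 3 genes that carry the LEC pattern, the co-receptor Nrp2, the receptor Plxnd1 and the ligand Sema3d. RefSeq promoters of GRCm38.p6, from 250 bases before to 50 bases after an annotated start of a gene, were matched by symbol for 26 of the 31 genes. The genes with no entry were Plxna1, Plxna4, Sema3b, Sema3f and Sema6a. Capitals mark GGAATG or CATTCC, the core letters of the TEAD motif through which YAP and TAZ act, and CCGGAA or TTCCGG, the core of an ETS motif, each searched on both strands. The windows are chr1:62703067-62703366 (plus strand) for Nrp2, chr6:115994956-115995255 (minus strand) for Plxnd1 and chr5:12382916-12383215 (plus strand) for Sema3d.
Nrp2: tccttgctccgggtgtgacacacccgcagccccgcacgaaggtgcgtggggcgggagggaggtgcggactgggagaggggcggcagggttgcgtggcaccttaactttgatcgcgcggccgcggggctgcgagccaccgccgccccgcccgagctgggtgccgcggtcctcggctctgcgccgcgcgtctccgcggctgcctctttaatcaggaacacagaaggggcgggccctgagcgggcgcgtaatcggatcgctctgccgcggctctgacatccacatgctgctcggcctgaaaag
Plxnd1: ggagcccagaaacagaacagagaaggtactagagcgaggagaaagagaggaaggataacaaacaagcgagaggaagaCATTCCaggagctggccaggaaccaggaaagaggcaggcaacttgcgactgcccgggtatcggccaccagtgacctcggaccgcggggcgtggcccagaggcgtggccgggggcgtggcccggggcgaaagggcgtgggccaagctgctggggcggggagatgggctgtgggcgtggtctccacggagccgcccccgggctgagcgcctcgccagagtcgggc
Sema3d: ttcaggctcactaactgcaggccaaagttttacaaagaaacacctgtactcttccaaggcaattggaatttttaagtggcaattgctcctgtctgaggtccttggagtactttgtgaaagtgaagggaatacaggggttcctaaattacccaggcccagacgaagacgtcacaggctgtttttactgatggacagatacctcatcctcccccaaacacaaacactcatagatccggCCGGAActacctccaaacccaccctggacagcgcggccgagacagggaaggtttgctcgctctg
The Plxnd1 window holds the TEAD letters 173 bases before the start that the window uses. The Sema3d window holds the ETS letters 14 bases before its start, and the Nrp2 window holds neither. The Plxnd1 window lies wholly inside the gene position given above, so its letters fall within the gene as placed there. Among the 37 promoters of the 26 genes, the TEAD letters stood in 3 (8.11%, those of Sema4a, Plxnd1 and Plxnb1) and the ETS letters in 4 (10.8%, those of Sema4a, Sema3d, Sema4b and Plxnb1). In Plxnb1 a TEAD and an ETS match share bases. Over all 32851 RefSeq promoters of that length the shares were 14.7% and 14.9%. A match of letters is a description and not a binding site.

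The transmembrane semaphorins were divided as well. Sema6a, a ligand of Plxna2 and Plxna4, had 135, 217, 177 and 115 CPM in WT LECs and 195, 76.3 and 306 CPM in KO LECs. WT IntSCs had 3.34 to 24.8 CPM with a median of 12.9 CPM, and KO IntSCs 12.1, 17.8, 16.9, 16.4 and 13.8 CPM. The cell types did not overlap, with a log2 fold change of 3.70 ± 0.45 in WT (adjusted p = 2.01e-05) and 3.57 ± 0.41 in KO mice (adjusted p = 0.000163). Sema6b, from the same class, had 47.3, 78.0, 59.7 and 82.0 CPM in WT LECs but 30.5, 9.51 and 12.6 CPM in KO LECs. WT IntSCs had 4.35 to 19.0 CPM with a median of 12.0 CPM, and KO IntSCs 16.3, 10.6, 11.2, 13.1 and 11.3 CPM. LECs were higher in WT mice (2.47 ± 0.45, adjusted p = 0.000929), whereas the KO groups overlapped (0.42 ± 0.73, adjusted p = 0.753). Sema7a had 36.8, 91.0, 61.8 and 109 CPM in WT LECs, above the 12.7 to 36.2 CPM of WT IntSCs (median 19.3 CPM). KO LECs had 55.3, 96.4 and 32.8 CPM and KO IntSCs 49.5, 36.0, 43.5, 16.1 and 28.0 CPM, which overlapped. The log2 fold change of Sema7a was 1.78 ± 0.40 in WT (adjusted p = 0.00416) and 0.75 ± 0.48 in KO mice (adjusted p = 0.311).

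Sema5a and Sema6c went the other way. Sema5a (chr15:32244813-32696341, plus strand), a thrombospondin-repeat semaphorin, had 83.4 to 198 CPM in WT IntSCs with a median of 114 CPM, and 67.2, 118, 65.7, 41.7 and 76.0 CPM in KO IntSCs. WT LECs had 0.190, 13.5, 4.11 and 9.44 CPM, and KO LECs 0.142, 0.219 and 0.130 CPM. Every LEC library was lower, by a log2 fold change of −4.18 ± 0.74 in WT (adjusted p = 0.000866) and −8.73 ± 0.66 in KO mice (adjusted p = 1.13e-05), the latter over 4 LEC reads. Sema6c (chr3:95160420-95174050, plus strand) had 49.1 to 119 CPM in WT IntSCs with a median of 62.4 CPM, and 60.0, 103, 30.1, 36.8 and 62.1 CPM in KO IntSCs. WT LECs had 20.3, 10.6, 0.281 and 8.15 CPM, and KO LECs 0.285, 0 and 0.130 CPM. The log2 fold change of Sema6c was −2.88 ± 0.73 in WT mice (adjusted p = 0.0103), and in KO mice the ratio of IntSC to LEC level was 464 (95% counting interval 159 to 2251, 3 LEC reads, adjusted p = 0.000149). Its WT call was lost with the replicate number as a block (edgeR, adjusted p = 0.121).

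Sema4b, a class 4 transmembrane ligand, had 0.135 to 22.4 CPM in WT IntSCs with a median of 6.35 CPM, and 13.4, 21.9, 9.64, 0.152 and 22.7 CPM in KO IntSCs. WT LECs had 0, 9.84, 1.87 and 0.497 CPM, and KO LECs no read. Against the floor of 3 reads per library, it was at least 35.6-fold lower in KO LECs than the mean of KO IntSCs (adjusted p = 0.015). That bound leaves out the spread of KO IntSCs, of which library 4 held 1 read, itself below the floor. The KO call was lost with the replicate number as a block (edgeR, adjusted p = 0.163), and Sema4b did not pass in WT mice (adjusted p = 0.611). Sema4c, a Plxnb2 ligand, was abundant in all 18 libraries, at 267 to 528 CPM in IntSCs and 147 to 522 CPM in LECs. Its difference between the cell types was −0.47 ± 0.30 in WT (95% interval −1.06 to 0.11) and −0.16 ± 0.27 in KO mice (−0.69 to 0.38). The other class 4 to 6 members, Sema4a, Sema4d, Sema4f, Sema4g, Sema5b and Sema6d, had 0 to 41.1 CPM and passed in neither genotype. Of these, Sema4d in KO LECs (2.71 to 14.1 CPM) lay above KO IntSCs (0 to 1.93 CPM) with an adjusted p of 0.125.

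**Figure D4:**
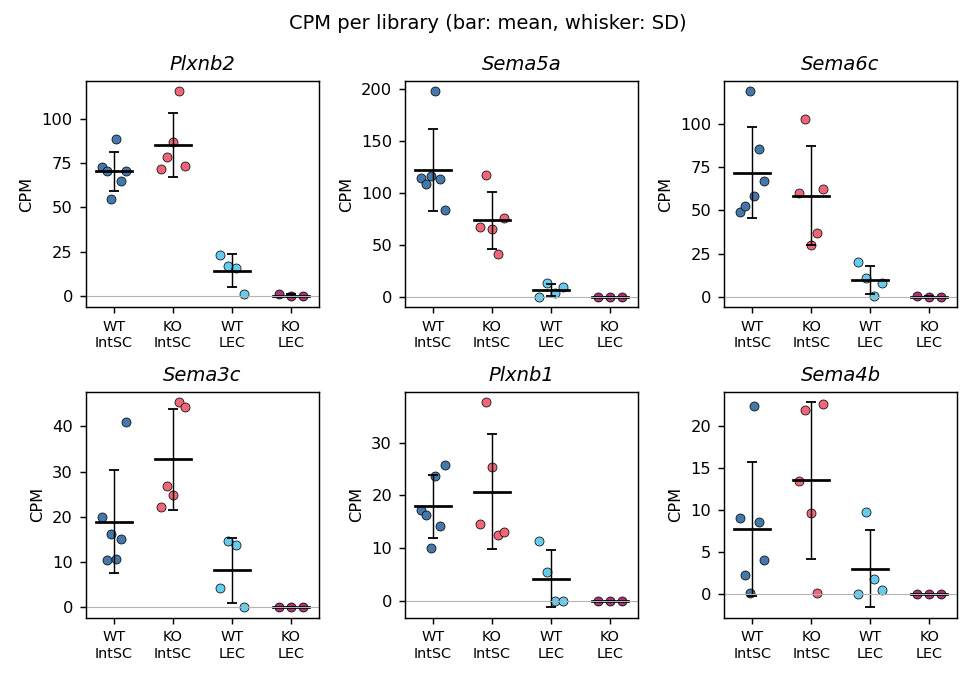
CPM per library (points) in the 4 groups for 6 genes that were lower in KO LECs than in KO IntSCs, with the group mean as a bar and the SD as whiskers. The 3 KO LEC points lie at or near 0 in every panel, and the WT LEC points spread between 0 and 23.1 CPM.

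Partners of these receptors were counted in lists. Over all genes tested, 10.3% were higher in LECs and 12.3% lower in WT mice, and 9.11% and 16.8% in KO mice. Of 12 co-receptors and partners, 10 were tested in WT mice. Kdr (VEGFR2, log2 fold change 5.22 ± 0.33) and Flt4 (VEGFR3, the lymphatic receptor of VEGF-C, 8.56 ± 0.54) were higher in LECs, and Ptk7, a kinase-dead receptor, was lower (−3.68 ± 0.76). In KO mice 3 of 10 were higher (Flt4, Kdr and the integrin chain Itgb1) and 4 lower (Flt1, Chl1, Itga1 and Ptk7). Flt4 is also in the LEC marker list and Flt1 in the blood endothelial one. Of 22 intracellular effectors, 20 were tested in each genotype. In WT mice 2 were higher in LECs, the GTPases Rnd1 (3.15 ± 0.29) and Rras (0.67 ± 0.21), and 7 were lower. These were Dpysl3 (−1.60 ± 0.27), of the collapsin response mediator family, the kinase Gsk3b (−1.17 ± 0.24), Arhgef12, Farp1, Mical1, Sh3bp1 and Dpysl4. Sh3bp1 and Dpysl4 had at most 0.0935 CPM in any WT LEC library. In KO mice 4 were higher, namely Gipc1 (2.71 ± 0.47), Fyn (1.75 ± 0.33), Mical3 and Rras, and 2 were lower (Sh3bp1 and Mical2). The median over the tested co-receptors was −0.43 in WT and −2.22 in KO mice, and over the effectors −0.21 and −0.25.

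The next question was what the deletion of Lats1 and Lats2 in PDGFRb+ cells went with in each cell type. In IntSCs, none of the 24 tested genes passed between KO and WT (edgeR), against 1.47% of all genes. DESeq2 passed 1, among 376 genes in all, and 2 (Sema3d and Sema5a) had an unadjusted p under 0.05, against 9.81% of all genes. The median log2 fold change was 0.0030 over the tested members and 0.0026 over all genes. Of the members tested, Sema3d had the largest difference. Its 5 KO IntSC libraries (22.8 to 53.0 CPM) all lay above its 6 WT libraries (0.170 to 10.1 CPM), as was the case for 1.63% of all genes, with a log2 fold change of 2.45 ± 0.63 and an adjusted p of 0.0556. It passed with DESeq2 (adjusted p = 0.00617), without the filter on low counts (0.0278) and without WT IntSC library 2 (0.0347), and the adjusted p over all fits that left out 1 library ran to 0.239.

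Since Sema3d is abundant in LECs, LEC markers in the IntSC libraries are given beside it. Their summed level was 237 to 414 CPM in WT and 421 to 498 CPM in KO IntSCs, without overlap. Pdpn, which IntSCs also expressed at 112 to 380 CPM, made up most of it, with means of 236 CPM in WT and 326 CPM in KO. Pecam1 averaged 37.2 CPM in WT and 87.1 CPM in KO IntSCs, Cdh5 10.4 and 19.3 CPM, and Flt4 3.8 and 9.5 CPM. Lyve1 (5.44 and 5.41 CPM), Ccl21a (17.9 and 12.6 CPM), Mmrn1 (2.16 and 1.77 CPM) and Reln (3.34 and 2.08 CPM) did not rise. None of the 8 LEC markers tested passed between genotypes in IntSCs. As a share of the KO LEC mean, the KO IntSC libraries held 3.42 to 4.04% of the marker sum but 11.2 to 26.0% of Sema3d, and their mean Prox1 was 0.114% of that in KO LECs. Prox1 averaged 0.0786 CPM in WT and 0.0800 CPM in KO IntSCs. The summed level of 6 Paneth and goblet cell markers was 0.909 to 66.2 CPM in WT and 47.1 to 96.3 CPM in KO IntSCs, with 1 of them (Lyz1) past the test. The 8 epithelial markers summed to 0 to 118 CPM in WT, with a median of 6.47 CPM, and to 23.4 to 118 CPM in KO IntSCs, with a median of 69.1 CPM, and Krt19 among them was higher in KO. Of the blood endothelial markers Ly6c1 was higher and Cd34 lower in KO IntSCs, and of the stromal markers Fbln1 and Col3a1 were lower. The part of these cell type markers in the Sema3d difference was not tested.

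Sema5a, with a log2 fold change of −0.73 ± 0.26 in KO IntSCs, overlapped between genotypes (adjusted p = 0.236). The neuropilins differed by −0.29 ± 0.18 for Nrp1 (95% interval −0.65 to 0.07) and 0.42 ± 0.23 for Nrp2 (−0.02 to 0.86, and 0.17 without KO IntSC library 4). Plxnd1 differed by −0.10 ± 0.25 (−0.59 to 0.39) and Sema4c by −0.05 ± 0.19 (−0.43 to 0.32). None of the 10 co-receptors and 20 effectors tested in IntSCs passed.

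**Figure D5:**
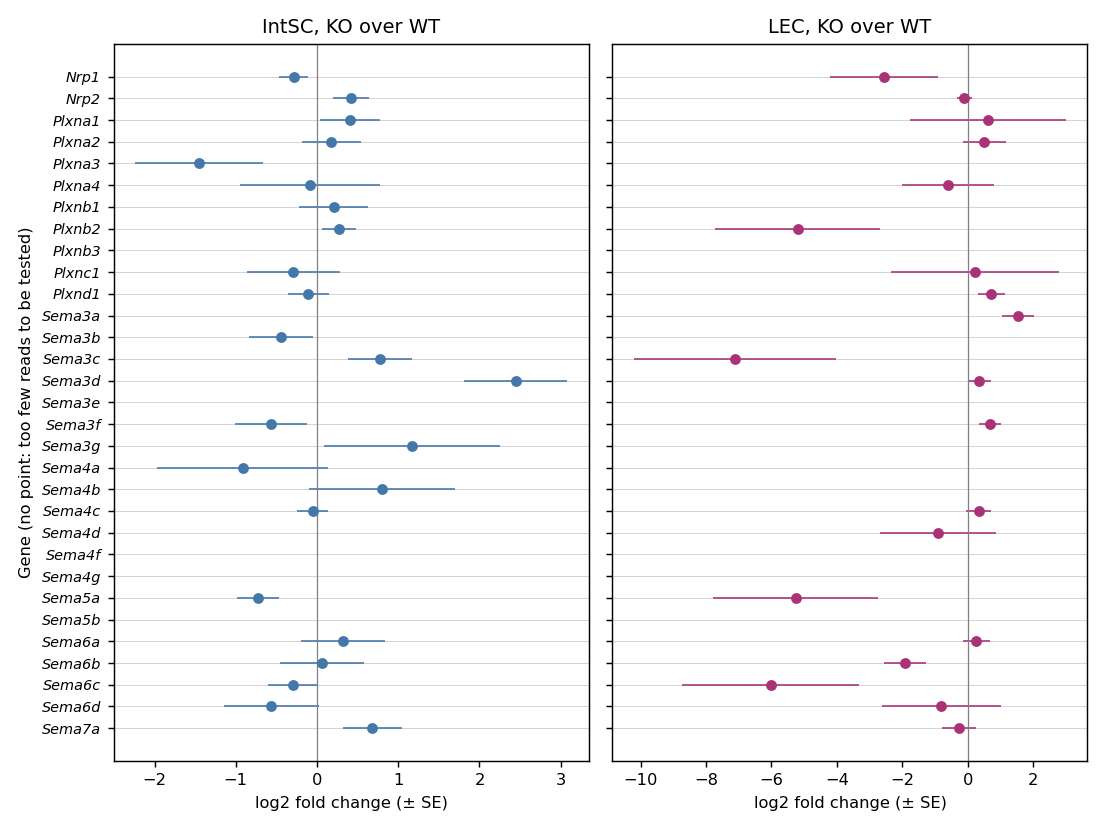
Log2 fold change of KO over WT with its SE for each tested gene in IntSCs (left) and LECs (right), on horizontal axes of different range. Sema3d has the largest value on the left, and on the right Plxnb2, Sema3c, Sema5a and Sema6c lie far to the left with wide errors.

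In LECs, none of the 20 tested genes passed between KO and WT with edgeR or with DESeq2. Over all genes 0.0658% passed with edgeR, and DESeq2 passed 309 genes. Sema3a, Sema3c, Sema6b and Sema6c had an unadjusted p under 0.05 (7.87% of all genes). Sema3a was higher in all 3 KO LEC libraries (97.6 to 180.0 CPM) than in all 4 WT ones (20.3 to 88.6 CPM), as were 4.01% of all genes, with a log2 fold change of 1.53 ± 0.50 and an adjusted p of 0.41. Sema6b was lower in all KO LECs (9.51 to 30.5 CPM against 47.3 to 82.0 CPM), as was Plxnb2 (0 to 1.14 CPM against 1.19 to 23.1 CPM), and 5.8% of all genes had that order. The log2 fold change of Sema6b was −1.92 ± 0.64 (adjusted p = 0.423). That of Nrp2 was −0.10 ± 0.22 (95% interval −0.53 to 0.33), of Plxnd1 0.73 ± 0.42 (−0.09 to 1.55), of Sema3d 0.35 ± 0.36 (−0.35 to 1.06) and of Sema3f 0.69 ± 0.34 (0.03 to 1.36). The Sema3f interval leaves out 0 because it treats the SE as normal, whereas the edgeR test gave an unadjusted p of 0.0611 (adjusted p = 0.683). The median was −0.19 over the tested members and −0.03 over all genes. When all 4 groups were fitted together and shared 1 estimate of spread, 6 genes passed in the LEC comparison, namely Plxnb1, Plxnb2, Sema3b, Sema3c, Sema5a and Sema6c. Over all genes that fit passed 538, against 7 in the fit on LECs alone. None of the 9 co-receptors and 18 effectors tested in LECs passed. Beside these values, the summed Paneth and goblet cell markers were 0.0994 to 32.1 CPM in WT and 42.6 to 116 CPM in KO LECs, and their part in the differences was not tested.

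Whether the genotype difference itself differed between IntSCs and LECs was tested as an interaction. Of 27 tested genes 4 passed, Plxnb2, Sema3c, Sema5a and Sema6c, against 1.7% of all genes. All 4 were positive, meaning a more positive KO minus WT difference in IntSCs than in LECs, as were 1.42% of all genes. The values were 5.59 ± 1.07 for Plxnb2 (adjusted p = 0.00674), 7.93 ± 1.75 for Sema3c (0.0177), 4.56 ± 1.04 for Sema5a (0.0212) and 5.84 ± 1.19 for Sema6c (0.0098). The median of all genes was 0.24, and 0.13 with RLE size factors. Relative to the median of 0.24 the 4 values were 5.35, 7.69, 4.32 and 5.60. Because KO LECs held only 8, 1, 4 and 3 reads of these genes, the fitted sizes depend on the prior count and are no bound on a fold. Sema5a was lost without KO LEC library 1 (adjusted p = 0.0631) or 3 (0.0600), and Plxnb2 moved to 10.09 without KO LEC library 1. With the replicate number as a block, none of the 4 passed (edgeR, adjusted p = 0.411 to 0.631). The sources used here do not say what that number marks.

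Summed stromal marker RNA differed between the genotypes of the LEC libraries. The summed level of the 9 stromal markers was 2056, 626, 646 and 589 CPM in WT LECs and 311, 413 and 550 CPM in KO LECs, so that the genotypes did not overlap and the first WT LEC library stood apart. That first library had the lowest Sema5a of the WT LECs (0.190 CPM) and the highest Plxnb2 (23.1 CPM) and Sema6c (20.3 CPM). In KO LECs the marker sum was 3.02 to 5.34% of the KO IntSC mean, while Sema5a was 0.176 to 0.297% of its own KO IntSC mean, Plxnb2 0 to 1.34%, Sema6c 0 to 0.488% and Sema3c 0 to 0.436%. Single markers differed widely in KO LECs, from Dcn at 195 to 327 CPM to Pdgfra at 0.328 to 0.570 CPM. Pdgfra and Col3a1, 2 of the 9 stromal markers, also passed the interaction test in the same direction. Without WT LEC library 1 all 4 of the genes still passed. The part of stromal RNA in the 4 interactions was not tested beyond these values.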

How the data were processed

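The authors deposited 1 table per library with whole-number read counts for 23282 rows, and the 35 symbols found on more than 1 row were summed. Methods of the study name TopHat for mapping and Cufflinks, the submitters' processing notes name Bowtie2, edgeR and the mm10 build, and the counter, the versions and the annotation are not given in the sources used here. Groups were taken from the sample titles. Read totals of 5361250 to 10549233 limit the precision of low values, and floors and intervals cover counting error only, since reads were not collapsed by molecular identifiers. Ribosomal Rn45s took 7.02 to 24.4% of the reads. A 3′ read count was not divided by transcript length, so levels were not ranked between genes.

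CPM used TMM library sizes over all 18 libraries. Each comparison was fitted on the 2 groups it concerns, and the interaction on all 4, with edgeR 4.0.16 in R 4.3.3 (TMM, filterByExpr, robust quasi-likelihood fit, Benjamini-Hochberg adjustment over all genes tested, adjusted p under 0.05). SE is the log2 fold change over the square root of F, and 95% intervals derive from it under a normal approximation. With few libraries these intervals are narrower than the test itself implies. The pipeline was tested on simulated data. Alternatives were RLE factors, DESeq2 1.42.0, no filter beyond 1 read, the replicate number as a block, 1 fit over all 4 groups, and leaving out each library. Every gene that passed in any comparison was named with its values, as were Nrp1, Nrp2, Plxnd1, Sema3a and Sema3c to Sema3g regardless of the test. For Nrp2, likeness was Spearman's rho on log2(CPM + 1) over genes with a mean of at least 5 CPM. The genes, marker lists and pathway lists were chosen with earlier results of these data known. Sequences came from RefSeq (GRCm38.p6) and gene positions from an annotation of the same build, whose name matches that of mm10.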

Additional observations from a re-analysis of the deposited data

Results flagged for a closer look

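Single libraries stood apart from the rest of their group in 6 of 53 sets of values examined, where a nominal rate of 1 in 20 would set apart about 2.65. That rate assumes normal values, whereas these were CPM, some of them near 0. The genes examined were in part those that had passed a test, and KO LECs had too few libraries to be examined. No excess over chance is therefore read from these counts. In KO IntSC library 4, Nrp2 was 283.63 CPM against 131 to 151 CPM in the other 4, and Sema3a was 14.6 CPM against 0 to 2.32 CPM. In KO IntSC library 5, Sema3d was 53.0 CPM against 22.8 to 25.6 CPM. Among WT IntSCs, Sema3c was 41.0 CPM in library 6 against 10.5 to 20.01 CPM, Sema3e was 2.24 CPM in library 1 against 0 to 0.170 CPM, and Sema5a was 198 CPM in library 4 against 83.4 to 116 CPM.

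The KO minus WT difference was more positive in IntSCs than in LECs by a log2 value of 5.59 for Plxnb2 (adjusted p = 0.00674), 7.93 for Sema3c (0.0177), 4.56 for Sema5a (0.0212) and 5.84 for Sema6c (0.0098), by the interaction test of edgeR. In KO LECs these genes had 8, 1, 4 and 3 reads. None of them passed with the replicate number as a block.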

How the results depend on the processing

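The values compared were those of each family member where it passed, and of Sema3d, Sema5a and Nrp2 between genotypes in IntSCs and Sema3a, Sema6b and Plxnb2 in LECs. Over all alternatives 529 of them kept their direction and their side of the threshold, 29 fell below it and 4 rose past it, and none changed direction. Outside these, between cell types Plxna1 (DESeq2 and its size factors), Sema4d (no filter, and all 4 groups) and Sema3g (all 4 groups) also passed in WT mice, and Plxna1, Sema3g, Sema4a and Sema4g with DESeq2 in KO mice. DESeq2 passed 1 family member between KO and WT IntSCs and fitting without the filter on low counts passed 1, against 0 with edgeR. Over all genes that comparison passed 183 genes, 376 with DESeq2 and 27 in the fit over all 4 groups. In LECs 0 family members passed between genotypes, and 6 in the fit over all 4 groups. Over all genes 7 passed in LECs, 309 with DESeq2, 32 without the filter and 538 over all 4 groups. For the interaction, 4 family members passed and 7 with DESeq2 (Plxnb1, Sema3b and Sema4b in addition), and 238 genes in all and 1023 with DESeq2. When expression asked only for a median of 1 CPM, 22 family members counted as expressed in WT LECs instead of 13. The causes were not tested.

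Leaving out 1 library gave 0 to 1 family members and 99 to 186 genes between genotypes in IntSCs, 0 and 0 to 16 in LECs, 13 to 16 and 2233 to 2889 between cell types in WT mice, 14 to 16 and 2557 to 3320 in KO mice, and 3 to 6 and 161 to 461 for the interaction. The fewest genes in IntSCs (99) came without KO IntSC library 3, and in LECs (0) without WT LEC library 3. Family members expressed ran over 19 to 22 in WT IntSCs, 22 to 24 in KO IntSCs, 14 to 15 in WT LECs and 12 to 14 in KO LECs.

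Replicate numbers are shared between groups, and the deviations of same-numbered libraries had small correlations, from −0.0612 to 0.0802. Between WT IntSC and WT LEC libraries these were all positive, at 0.0234 to 0.0448, beside a mean of −0.0072 for libraries with different numbers. Each of the 4 WT IntSC libraries that share a number with a WT LEC library correlated best with it, which is a hint from the data and not from the design, and 1 of 5, 1 of 3 and 1 of 3 did so in the other pairings. With the replicate block, 0 family members passed between genotypes in either cell type and 0 for the interaction (adjusted p = 0.411 to 0.631 for Plxnb2, Sema3c, Sema5a and Sema6c), and 10 passed between cell types in each genotype. The calls lost between cell types were those of Nrp1, Plxnb2, Plxnd1 and Sema6c in WT mice. In KO mice they were those of Plxna3, Plxnb1, Plxnd1 and Sema4b. Over all genes the block passed 122 in IntSCs, 3 in LECs, 1596 and 895 between cell types in WT and KO mice, and 16 for the interaction.

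KO LECs had 3 libraries, and 5 of the 31 genes had no read in any of them, so that low levels there were at the limit of detection. Leaving a library out of that group left 2.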
